A study of Rattus norvegicus with 4 samples.

Results

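A set of 6 genes for growth factor signalling was followed over the 4 culture conditions: the EGF-family ligands Hbegf (ENSRNOG00000018646), Ereg (ENSRNOG00000002771) and Tgfa (ENSRNOG00000016182), the VEGF ligand Vegfa (ENSRNOG00000019598), and the receptors Egfr (ENSRNOG00000004332) and Pdgfrb (ENSRNOG00000018461). They were chosen as a set of ligands and receptors, by rat Ensembl gene identifier, from the 20174 gene probes of the array, and all 6 were present with 1 probe each. The pairing of identifier and symbol came with the list; the deposited files hold identifiers only. The cells were Rat-1·RasValA1, a stable line of rat embryonic fibroblasts that carries HrasG12V, an activated form of the small GTPase Hras, under a promoter that IPTG induces. All cultures were in serum-free DMEM for 24 h, and differed in whether IPTG (5 mM) and ZnCl2 (3 µM) had been added: neither, IPTG alone, ZnCl2 alone, or both together. A single-colour array was run for each condition, 1 per culture, so no difference between 2 conditions has a replicate check. All 4 cultures carried the inducible allele and none was a line without it, so an effect of IPTG itself cannot be told apart from induction of HrasG12V. The Hras probe and fibroblast markers were not analysed here, because no table used here pairs the other identifiers with symbols.

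EGF-family ligands are made as membrane-anchored precursors that metalloproteases of the ADAM family cut free. The released ligand binds an ErbB receptor tyrosine kinase, such as the EGF receptor encoded by Egfr, and the receptor activates Ras and the Raf, MEK and ERK kinases. Genes for some of these ligands are known targets of that same pathway, so that cells with active Ras can make ligand that acts on themselves. Vegfa encodes the growth factor that acts on endothelial receptors in blood vessel growth, and its transcription is known to respond to hypoxia and to growth signals. Pdgfrb encodes the beta receptor for platelet-derived growth factor, a receptor typical of fibroblasts and other mesenchymal cells.

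The RefSeq promoter windows of Hbegf and Vegfa are shown because these were the 2 genes of the set at least 2-fold higher on both IPTG arrays. Each window runs from 250 bases before the annotated start of the gene to 50 after it, 5′ to 3′ on the gene's own strand, in build GRCr8. Capitals mark matches to 6 motifs searched on both strands: AP-1 (TGANTCA), the ETS core (CCGGAA), the CRE core (TGACGT), the core of the hypoxia response element (ACGTG), the GC box (GGGCGG) and the E-box (CACGTG). The E-box and the hypoxia core share letters, so an E-box also counts as a hypoxia core.
Hbegf, chr18:28390171-28390470, minus strand: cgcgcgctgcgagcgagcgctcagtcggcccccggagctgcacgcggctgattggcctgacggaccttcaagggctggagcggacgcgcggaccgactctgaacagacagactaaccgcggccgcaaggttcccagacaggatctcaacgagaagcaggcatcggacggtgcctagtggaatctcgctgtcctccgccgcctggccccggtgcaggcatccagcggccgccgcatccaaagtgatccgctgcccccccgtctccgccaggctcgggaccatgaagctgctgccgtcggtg
Vegfa, chr9:22452604-22452903, plus strand: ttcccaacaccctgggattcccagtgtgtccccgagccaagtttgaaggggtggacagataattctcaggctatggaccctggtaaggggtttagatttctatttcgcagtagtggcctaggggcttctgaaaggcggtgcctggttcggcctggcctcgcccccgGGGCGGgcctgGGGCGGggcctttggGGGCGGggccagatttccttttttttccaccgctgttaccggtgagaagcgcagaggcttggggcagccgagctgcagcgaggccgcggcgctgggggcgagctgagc
The Vegfa window held 3 GC boxes, the site of Sp1-family factors, starting 84, 73 and 58 bases before the annotated start. The GC box occurred in 33.06% of the 33469 windows in the table. The Hbegf window held 0 matches to the 6 motifs, which says only that these letters are not in these 300 bases. AP-1 letters, bound by Fos-Jun dimers, occurred in 7.33% of all windows, the ETS core in 14.95%, the CRE core in 7.94%, the hypoxia core in 19.25% and the E-box in 6.42%. The window of Tgfa held 2 GC boxes, and that of Egfr held 1 GC box, 1 ETS core and 1 hypoxia core. G and C made up 68.7% of the Hbegf window and 63.3% of the Vegfa window, against a median of 51.7% over all windows. A second Vegfa window in the table, at a later start, held 0 matches. Of the 6 genes, 4 had a window in the table; Ereg and Pdgfrb had none.

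A signal is given here as spot intensity above the mean of the 1344 blank spots of the same array. The blank means were 66.0 to 69.8 and their SDs 0.83 to 1.01. A probe was called detected above the blank mean plus 2 SD, and 66.7% to 72.4% of the gene probes were detected on an array. Repeat spots of the positive controls (48 per array) had an SD of 0.13 to 0.19 on the log2 scale. The spot SD given beside a difference combines these with the blank SD; it covers spots within an array and not cultures, labelling or arrays. Differences between conditions are on the scale log2(signal + 50) after quantile normalization, which shrinks the differences of dim probes, so the plain ratio of blank-subtracted signals stands beside them. These plain ratios are not scaled between arrays, so they also hold any difference in brightness between whole arrays. Of the 6 genes, 5 were detected on all 4 arrays and 1, Ereg, on none. As these 5 were seen on every array, none passed the detection filter through 1 group alone. RNA was taken from whole cultures, so more transcript per cell and more cells with the transcript cannot be told apart.

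Hbegf encodes heparin-binding EGF-like growth factor, a ligand of the EGF receptor. Its signal above the blank spots was 20.7 with no addition, 444 with IPTG, 19.9 with zinc and 281 with both. Both IPTG arrays were far above both arrays without IPTG, which lay close together. The ratio of these signals was 21.5 without zinc and 14.2 with zinc. On the normalized scale Hbegf was 6.69-fold higher with IPTG without zinc, a log2 difference of 2.74 ± 0.13 (spot SD). With zinc it was 4.39-fold higher, a log2 difference of 2.14 ± 0.15 (spot SD). In the first pair 22 of the 13972 probes tested had a difference at least as high, and in the second pair 37. Ranked by the smaller of the 2 differences, Hbegf stood at place 27 from the top.

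The additive limma fit over all 4 arrays gave Hbegf a mean IPTG difference of 2.44 ± 0.25 on the log2 scale (SE), with an adjusted p of 0.00119. This fit averages the 2 pairs of arrays, which share no array. Their disagreement leaves 1 residual degree of freedom per probe, which holds any dependence on zinc as well as noise. The error of a probe is drawn toward a prior from all probes entered, which follows signal intensity. The SE and p of a gene thus lean on other probes and do not measure the spread of that gene between cultures. In this fit, 4.72% of the 13972 probes were called higher with IPTG and 5.59% lower, at an adjusted p of 0.05. These were 660 and 781 probes, against 401 higher and 616 lower with the local background and 896 higher and 320 lower in the authors' table, so the split between directions depended on the values used. In the authors' table the median log2 IPTG difference over all listed probes was itself 0.32 in this fit. Hbegf rose with IPTG in this fit, in 2 of 2 pairs. The call was lost with a constant variance prior (adjusted p = 0.120), which called 0 of all 13972 probes although 2962 had an unadjusted p under 0.05. It was also lost without a filter on dim probes (adjusted p = 0.305), where 0 of all 20166 probes were called and 2751 had an unadjusted p under 0.05.

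The local background around the Hbegf spot also moved with IPTG. It was 70.3 (no addition) and 66.0 (zinc), against 324 (IPTG) and 261 (both). Above the blank mean this made up 58.2% of the Hbegf signal with IPTG and 68.1% with both additions. For gene spots with a signal of 200 to 600, the median share was 28.0% with no addition, 29.7% with zinc, 38.6% with IPTG and 33.8% with both. With the local background in place of the blank mean the log2 difference was 1.87 without zinc and 0.96 with zinc, so that the second pair was just under 2-fold apart, and the adjusted p was 0.0138. The brightest of the 8 adjacent spots read 13017, 10349, 10784 and 11548 above the blanks in the order none, IPTG, zinc and both. With IPTG this highest reading was lower in the pair without zinc and slightly higher in the pair with zinc. It was taken on each array apart, so it need not be the same spot. The part of adjacent spots in the Hbegf signal was not tested. In the authors' deposited table the normalized intensity of Hbegf was 9.90, 251, 8.67 and 129 in the same order, a ratio of 25.4 without zinc and 14.9 with zinc.

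**Figure D1:**
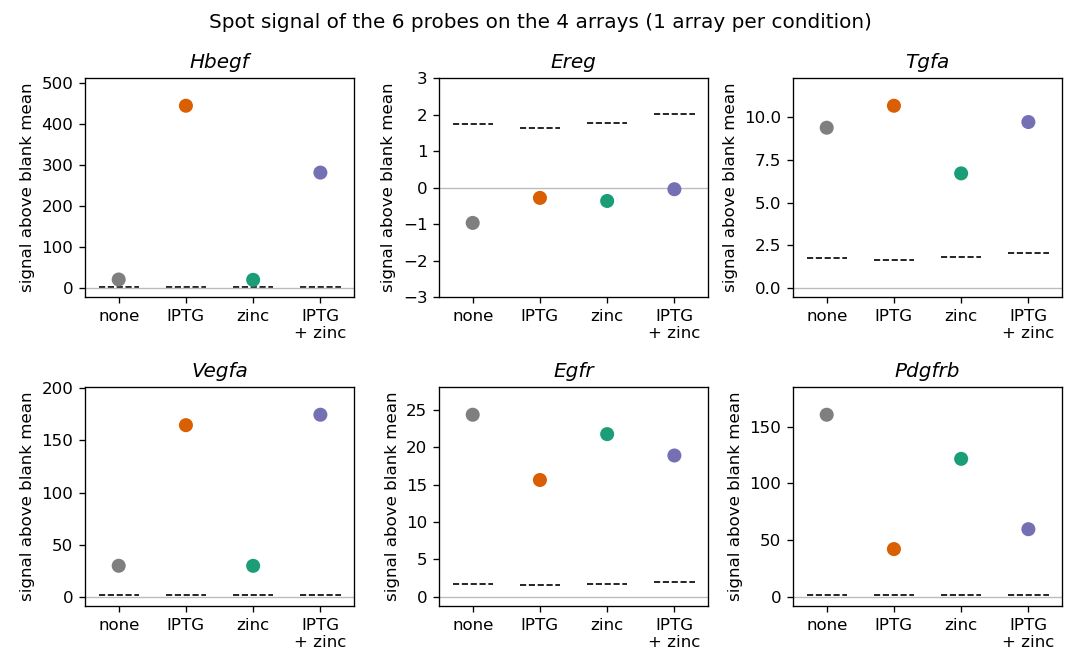
Spot signal above the mean of the blank spots (y axis, linear intensity units, a scale of its own per panel) for the 6 genes under each condition (x axis), 1 point per array; dashed lines mark the detection limit. Hbegf and Vegfa were high on both IPTG arrays and Pdgfrb on both arrays without IPTG, while Ereg stayed below the limit on all 4.

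Tgfa encodes transforming growth factor alpha, another ligand of the EGF receptor. Its signal was 9.39 with no addition, 10.7 with IPTG, 6.71 with zinc and 9.72 with both additions, which is 7.51 to 12.9 blank SDs above the blank mean. The array with zinc alone was the lowest, and the values with both additions and with no addition differed by less than the blank SD. The normalized log2 difference with IPTG was 0.02 ± 0.05 without zinc and 0.04 ± 0.05 with zinc (spot SD), both smaller than the spot SD. The limma fit gave 0.03 with a 95% interval of -0.07 to 0.13 and an adjusted p of 0.770. At this signal the added 50 would shrink any change. The ratio of blank-subtracted signals, not scaled between arrays, was 1.14 without zinc and 1.45 with zinc. In the authors' table, which adds nothing, the log2 difference was 0.43 and 0.61, beside a median over all listed probes of 0.34 and 0.29. The adjusted p for Tgfa with IPTG lay between 0.315 and 0.889 over the 11 alternatives tried. Among these, the limit of 0.10 changed only the cutoff and so repeats the main value.

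Ereg encodes epiregulin, a ligand of the EGF receptor and of ErbB4. Relative to the blank mean its spot read -0.965 with no addition, -0.279 with IPTG, -0.363 with zinc and -0.0405 with both, all below the mean. It was not well above background on any array, so no fold is given, and the authors' table is empty for it. The 3 EGF-family ligands thus showed 3 patterns: Hbegf higher with IPTG, Tgfa with no IPTG difference past its spot SD, and Ereg undetected.

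Vegfa had a signal of 29.9 with no addition, 165 with IPTG, 29.8 with zinc and 175 with both additions. The 2 arrays without IPTG were nearly equal, the 2 with IPTG were close to each other, and the groups did not overlap. The share of all probes with such a split of 2 arrays against 2 was not counted, here or for the other members. The ratio of signals with and without IPTG was 5.51 without zinc and 5.85 with zinc. On the normalized scale Vegfa was 2.68-fold higher without zinc, a log2 difference of 1.42 ± 0.13 (spot SD). With zinc it was 2.62-fold higher, a log2 difference of 1.39 ± 0.14 (spot SD). By the smaller of the 2 differences it stood at place 75 of 13972 probes. The limma fit gave 1.40 ± 0.20 (SE) with an adjusted p of 0.00501, higher in 2 of 2 pairs. Vegfa rose with IPTG in this fit, and the call was lost with a constant prior (adjusted p = 0.120) and without a filter on dim probes (adjusted p = 0.305). As given for Hbegf, both of these settings called 0 of all probes.

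The local background around the Vegfa spot was 71.6 and 82.6 without IPTG and 131 and 132 with it, which above the blanks was 39.4% and 35.9% of the Vegfa signal on the IPTG arrays. With local background the log2 differences were 1.10 and 1.29, both still past 2-fold. The brightest of its 8 adjacent spots, taken on each array apart, read lower on the IPTG arrays (60.7 and 49.0) than on the others (140 and 131). The authors' table gave normalized intensities of 14.3, 93.0, 13.03 and 80.4 in the order none, IPTG, zinc and both, a ratio of 6.51 without zinc and 6.17 with zinc.

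The members past 2-fold in the same direction in the pair without zinc and in the pair with it were Hbegf and Vegfa, both higher with IPTG. Over all probes tested, 192 of 13972 (1.37%) were that much higher in both and 195 (1.4%) that much lower. In the single pairs 3.56% of probes were at least 2-fold higher without zinc and 2.17% with zinc.

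**Figure D2:**
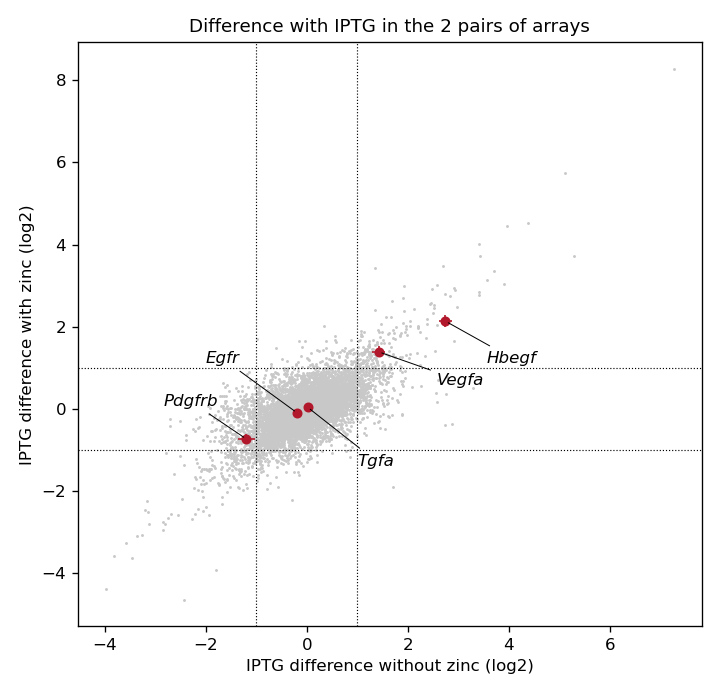
Log2 difference with IPTG without zinc (x axis) and with zinc (y axis) for all 13972 probes tested (grey) and the 5 detected members (red, bars show the spot SD); dotted lines mark 2-fold. Hbegf and Vegfa lie past 2-fold on both axes, Pdgfrb at -1.19 and -0.74, Egfr at -0.19 and -0.10, and Tgfa at 0.02 and 0.04.

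Of the 2 receptor genes, Pdgfrb had a lower signal with IPTG in both pairs. It had a signal of 161 with no addition, 42.2 with IPTG, 122 with zinc and 59.7 with both. Both arrays with IPTG were below both arrays without it. IPTG went with a blank-subtracted signal 3.80-fold lower when zinc was absent and 2.04-fold lower when it was present. On the normalized scale the log2 difference was -1.19 ± 0.16 without zinc (2.29-fold lower) and -0.74 ± 0.13 with zinc (1.67-fold lower; spot SD). At least 2-fold lower were 3.97% of all probes tested in the first pair and 2.33% in the second, and Pdgfrb met this limit in the first alone. Counting both directions, 3 members were 2-fold apart in the first pair, where 7.54% of all probes were, and 2 in the second, where 4.49% were.

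The limma fit gave Pdgfrb a mean IPTG difference of -0.97 ± 0.22 on the log2 scale (SE), with an adjusted p of 0.0301 and a lower value in 2 of 2 pairs. Pdgfrb fell with IPTG in this fit, but its call was lost under 4 alternatives, against 2 each for Hbegf and Vegfa. With the local background the adjusted p was 0.0625, 0.0522 with the authors' table, with a constant prior 0.159 and without a filter on dim probes 0.353. The last 2 settings called 0 of all probes. The authors' table gave normalized intensities of 76.8, 23.9, 53.1 and 27.5 in the order none, IPTG, zinc and both. Spots beside Pdgfrb went the other way: the median of its 8 neighbours was 7.14 and 5.19 above the blanks without IPTG, and 158 and 101 with it. Their part in the Pdgfrb signal was not tested.

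Egfr, the receptor for all 3 EGF-family ligands above, had a signal of 24.3 with no addition, 15.6 with IPTG, 21.7 with zinc and 18.9 with both additions. The 2 IPTG arrays were the lowest. The ratio of blank-subtracted signals with and without IPTG was 0.642 without zinc and 0.869 with zinc. The normalized log2 difference with IPTG was -0.19 ± 0.08 without zinc and -0.10 ± 0.07 with zinc (spot SD). The limma fit gave -0.15, a 95% interval of -0.32 to 0.03 and an adjusted p of 0.288. The interval includes 0, on a scale that the added 50 shrinks. With the local background the first difference turned to 0.06 and the second was 0.00. The authors' table gave normalized intensities of 11.6, 8.82, 9.48 and 8.69, a ratio of 0.759 without zinc and 0.916 with zinc.

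In all, the limma fit called 3 of the 5 tested members for IPTG, 2 higher and 1 lower, where it called 10.3% of all 13972 probes in either direction. The members were chosen with earlier results of these arrays known, so this share is a description of the set.

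**Figure D3:**
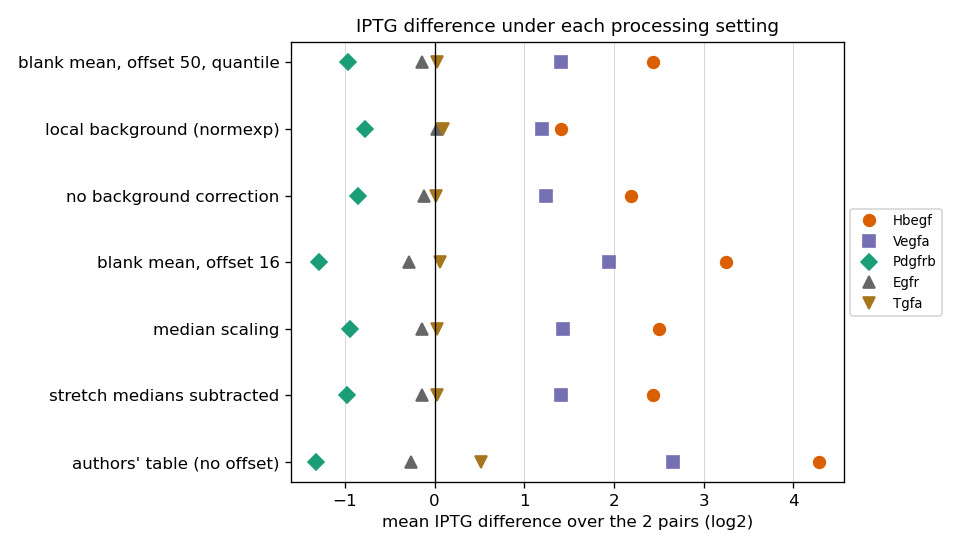
Mean log2 difference with IPTG over both pairs of arrays (x axis) for the 5 detected members under 7 processing settings (y axis). Hbegf and Vegfa stay to the right of 0 and Pdgfrb to the left in each, while the size for Hbegf runs from 1.41 with local background to 4.28 in the authors' table.

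With zinc alone against no addition, the ratio of blank-subtracted signals was 0.960 for Hbegf, 0.998 for Vegfa, 0.894 for Egfr, 0.758 for Pdgfrb and 0.715 for Tgfa. Pdgfrb and Tgfa were thus the members with the lowest ratios. On the normalized scale Pdgfrb was past its spot SD and Tgfa only just. With the local background the log2 difference of Tgfa turned to 0.03, while that of Pdgfrb was -0.32. The log2 zinc difference without IPTG was -0.01 ± 0.07 for Hbegf, 0.00 ± 0.09 for Vegfa, -0.05 ± 0.05 for Tgfa and -0.05 ± 0.08 for Egfr (spot SD). For Pdgfrb it was -0.27 ± 0.17, and 528 of the 13667 probes tested were at least as low. The authors' table gave log2 differences of -0.62 for Tgfa and -0.53 for Pdgfrb, beside a median of -0.20 over its listed probes. None of the 5 was 2-fold apart, and over all probes 0.0805% were, 9 higher and 2 lower. This background moved with the processing: 221 probes (1.62%) were 2-fold apart with the local background, 78 of them higher, and 209 of 12781 (1.64%) were in the authors' table, 33 higher and 176 lower.

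In IPTG cells, zinc went with a lower Hbegf signal, 281 against 444. The normalized log2 difference was -0.62 ± 0.18 (spot SD), which 548 of 13667 probes (4.01%) matched or passed, and in the authors' table it was -0.96 beside a median of -0.24 over listed probes. Vegfa was at -0.03 ± 0.16, Tgfa at -0.03 ± 0.05, Egfr at 0.04 ± 0.06 and Pdgfrb at 0.19 ± 0.11. The ratio of blank-subtracted signals in this pair was 0.633 for Hbegf, 1.06 for Vegfa, 0.911 for Tgfa, 1.21 for Egfr and 1.42 for Pdgfrb. Here too none of the 5 was 2-fold apart, where 2.73% of all probes were. The limma fit for zinc called 0 members and 0 of 13667 probes, with 451 probes (3.30%) at an unadjusted p under 0.05; a constant prior and a robust one also called 0. Its mean zinc difference for Hbegf was -0.32 with a 95% interval of -0.88 to 0.24, and for Vegfa -0.02 with an interval of -0.48 to 0.45. These intervals include 0 and are wide.

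Whether the response to IPTG depended on zinc was read from the change in the IPTG difference once zinc was present. This change was -0.61 ± 0.20 for Hbegf, 0.46 ± 0.21 for Pdgfrb, -0.03 ± 0.19 for Vegfa, 0.09 ± 0.10 for Egfr and 0.02 ± 0.07 for Tgfa on the log2 scale (spot SD). For Hbegf and Pdgfrb the IPTG difference was smaller with zinc, and for Vegfa it was nearly equal. Of all 14254 probes, 813 were at least as low as Hbegf and 1372 at least as high as Pdgfrb. A 2-fold change was reached by 0 members and by 3.97% of probes. With 4 arrays no residual is left to test it gene by gene, and with 1 array per condition a dependence on zinc cannot be told apart from 1 culture or array that stands apart.

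**Figure D4:**
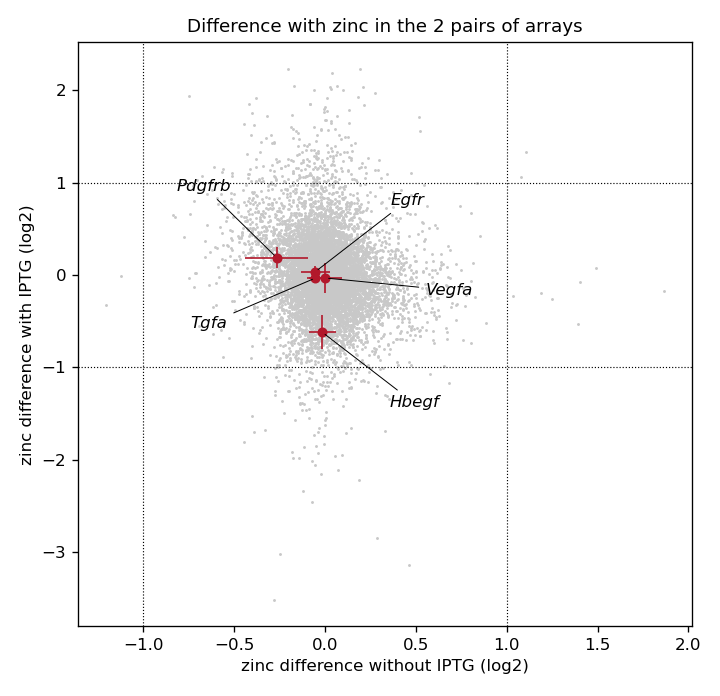
Log2 difference with zinc without IPTG (x axis) and with IPTG (y axis) for all 13667 probes tested (grey) and the 5 detected members (red, bars show the spot SD); dotted lines mark 2-fold. All 5 members lie inside the 2-fold lines, with Hbegf at -0.62 on the y axis.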

How the data were processed

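Per the labels' protocols, total RNA was extracted with TRIzol, amplified as amino allyl RNA and labelled with Cy5. Per the file headers, each deposited scanner file gives, for 27456 spots, the median intensity of the spot and of its local background, read at 3 gains related by least squares and not scaled between arrays. The authors' deposited table holds linear normalized intensity, with a median of 25 per array and empty cells for dim probes. The sources used here do not state its steps, but for the detected members its values were the blank-subtracted signals times a constant for each array.

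From the scanner files, the mean of the blank spots (5% trimmed at each end) was subtracted, with a floor of 1; 50 was added, log2 taken and the 20166 gene probes not marked poor were quantile normalized (limma 3.58.1, R 4.3.3). The blank mean was preferred to the local background because the latter went with the spot's signal: over the 20174 gene probes, which are not independent, Spearman's rho between them was 0.903 to 0.922 per array, and the median local background was 61.9 to 64.7 for spots with a signal below 100 and 698 to 882 for spots of 1000 or more. A probe entered a factor's comparison if, at 1 or both levels of the factor, both arrays detected it. The additive model used lmFit and eBayes with an intensity trend, two-sided, with Benjamini-Hochberg adjustment over all probes entered. It was also run on simulated data with independent noise and no interaction of IPTG with zinc. That run had no variation between cultures, so it does not bear on the limits of this design. Genes to name were the 6 members, chosen like the lists and tests with earlier results of these data known; probes with a like pattern and 16 lists (127 genes) needed symbols and were not analysed here, since 0 of 20174 identifiers matched a table. The labels name no separate cultures per condition. The number of arrays limits precision. Alternatives were the local background (normexp), no background correction, an offset of 16, median scaling, the authors' table, no filter, detection on all 4 arrays, medians of 192 stretches of spots subtracted, other priors, an adjusted p of 0.10 and fold limits of 1.5 and 3. Promoter sequences are from RefSeq.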

Additional observations from a re-analysis of the deposited data

Results flagged for a closer look

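Pdgfrb was lower with zinc without IPTG (log2 difference -0.27) and higher with zinc in IPTG cells (0.19), each past its spot SD. The difference between them, 0.46 on the log2 scale, was not tested, and with the local background the second value was -0.05.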

How the results depend on the processing

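For IPTG, Hbegf and Vegfa were higher and Pdgfrb lower in both pairs under all 8 alternatives of background, scaling, filter and position. The filter alternatives reuse the main values and change only which probes are tested, so their signs were fixed in advance and add no check. The log2 difference without zinc ran from 1.87 to 4.66 for Hbegf, 1.10 to 2.70 for Vegfa and -1.69 to -0.91 for Pdgfrb, and with zinc from 0.96 to 3.90, 1.22 to 2.62 and -0.99 to -0.64. The smallest sizes came from the local background, other than for Vegfa with zinc, where it was no background correction. Of the members, 3 were at least 2-fold apart with IPTG without zinc and 2 with zinc. With the local background this was 2 without zinc and 1 with zinc, where 9.20% and 7.16% of all 13972 probes were. With a limit of 3-fold it was 1 in each pair, where 1.95% of all probes without zinc and 1.22% with zinc were. A limit of 1.5-fold gave 1 member for zinc in IPTG cells, where 1377 of 13667 probes (10.08%) passed it. For the difference of effects it gave 1 member, where 1847 of 14254 probes (12.96%) passed it. The member was Hbegf in both. The limma fit called 3 members for IPTG, but 0 with a constant prior and 0 without a filter. Each of these settings also called 0 of all probes tested, 13972 with the constant prior and 20166 without a filter. Without the filter 3544 of 20166 probes sat at the floor with no residual variance, against 3 of 13972 with it. All-probe counts moved with the offset (824 higher and 940 lower without zinc) and the authors' table (2351 higher and 997 lower). The additive fit already compares IPTG within each zinc level. With 1 array per condition, and no replicate numbers in the labels, no further pairing was possible. Signal over background limits Tgfa and Ereg most. The signal was also low for Egfr on all 4 arrays, and for Hbegf and Vegfa without IPTG. The size of the IPTG difference of these 3 genes depends on the background taken.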
